A study of Homo sapiens with 19 samples.

Results

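ERRα-binding sites on EGF were compared between SKBr3 and BT-474 cells, 2 established breast cancer cell lines with amplified HER2 (the receptor tyrosine kinase encoded by ERBB2). The sites were taken from the ERRα ChIP-seq peak list of each line after EGF, and overlapping peaks (1 bp or more in common) were joined to 1 site. This gave 47151 sites of the 90452 sites held by all 8 peak lists of the study. Of these, 11764 sites (24.9%, 95% interval 24.6–25.3%) were shared by both lines, 20497 (43.5%) were found in SKBr3 alone and 14890 (31.6%) in BT-474 alone. The SKBr3 list is the longer, with 32567 peaks against 26832, and since most shared sites (11331) join 1 peak of each list, the difference between the one-line counts follows from the list lengths.

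The study compared ERRα binding in these lines after vehicle, EGF or heregulin (HRG), and in parental and lapatinib-resistant SKBr3 cells. Both lines were serum-starved for 24 h and then exposed for 90 min to EGF at 100 μM, the dose given by the labels, or to PBS vehicle in the control lists. The SKBr3 EGF list pools 2 ChIP libraries that were set against an input library of EGF-treated SKBr3 cells, whereas the BT-474 EGF list rests on 1 ChIP library set against the input of vehicle-treated BT-474 cells. With 1 list per line there is no spread between replicates, so no difference between the lines was tested, and line, library number and input cannot be told apart. Intervals are Wilson 95% intervals that cover counting error only. Read depth and DNA copy number are unknown, as neither tag numbers nor copy numbers are among the values. A missing peak thus says only that none passed the P cutoff of 1e-05 in that list. The score deposited with each peak, derived by MACS from −log10 of its P value, was ranked within its own list and is given as a percentile. Many strong peaks tie at a score of 3100, namely 786 SKBr3 peaks (percentile 98.6) and 534 BT-474 peaks (98.9), and ranks among them were set by peak width.

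ERRα, encoded by ESRRA, is an orphan nuclear receptor that binds DNA as a monomer or dimer at the ERR response element (ERRE) and is best known for driving genes of mitochondrial respiration together with the coactivators PGC-1α and PGC-1β. EGF binds the receptor EGFR, which pairs with HER2 and signals through the MAPK cascade to AP-1, the family of FOS and JUN transcription factors. BT-474 cells express the oestrogen receptor ERα, while SKBr3 cells are oestrogen receptor-negative. ERα binds an inverted repeat, the oestrogen response element (ERE), that resembles a pair of ERR core words. Words for these factors were therefore sought on both strands within 100 bp of the midpoint of each peak, and in flanking windows 2 kb to each side.

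The highest-ranked sites with an ERRE word (TCAAGGTCA, in capitals) show that this element lay in every class of site. The sequences are those of the GRCh37 (hg19) genome on the strand that carries the word.
KRT8 shared site, chr12:53289075-53289175 (− strand): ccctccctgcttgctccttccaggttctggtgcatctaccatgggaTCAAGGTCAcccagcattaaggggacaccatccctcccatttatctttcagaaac
DYRK1A site gained in both lines, chr21:38787636-38787736 (− strand): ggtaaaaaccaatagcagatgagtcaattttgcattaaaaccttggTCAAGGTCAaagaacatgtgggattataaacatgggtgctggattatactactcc
BCL11A SKBr3-only site, chr2:60703223-60703323 (− strand): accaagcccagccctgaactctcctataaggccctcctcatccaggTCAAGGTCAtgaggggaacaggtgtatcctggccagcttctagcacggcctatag
ACTR3B BT-474-only site, chr7:152676581-152676681 (+ strand): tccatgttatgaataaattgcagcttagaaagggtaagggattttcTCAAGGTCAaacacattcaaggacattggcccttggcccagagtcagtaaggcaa
The KRT8 site lies in intergenic sequence 8308 bp from a start of KRT8, which encodes a keratin of luminal epithelium, and scored at percentile 99.9 in SKBr3 and 98.9 in BT-474. The DYRK1A site is intronic and had a peak on EGF but not on vehicle in both lines, at percentiles 73.8 and 72.6. Its sequence also holds an AP-1 word (TGAGTCA), left in lower case, which lies beyond 100 bp of either midpoint and was not counted. The BCL11A site, in an intron of a zinc finger repressor gene, held the highest rank among SKBr3 peaks with no peak in any of the 3 BT-474 lists. The intergenic site nearest to ACTR3B (219757 bp away) was the first with the word among the equivalent BT-474 peaks, at rank 19, which lies within the tie at 3100.

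The AP-1 word (TGACTCA or TGAGTCA, in capitals) is shown in the classes whose AP-1 shares differed most. In the SPON1 site an AP-1 word runs into an ERRE word and the capitals mark both, while a further AP-1 word just upstream is left in lower case.
FOXA1 site gained in both lines, chr14:38049429-38049529 (+ strand): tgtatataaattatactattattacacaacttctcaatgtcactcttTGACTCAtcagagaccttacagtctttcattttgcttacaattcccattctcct
FGFR2 SKBr3-only site, chr10:123177615-123177715 (+ strand): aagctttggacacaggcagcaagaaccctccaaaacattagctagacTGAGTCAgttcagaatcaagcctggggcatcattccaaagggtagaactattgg
KCNK1 BT-474-only site, chr1:233840445-233840545 (+ strand): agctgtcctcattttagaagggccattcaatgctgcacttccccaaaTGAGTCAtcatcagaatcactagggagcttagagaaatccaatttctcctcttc
SPON1 shared site, chr11:13974024-13974124 (+ strand): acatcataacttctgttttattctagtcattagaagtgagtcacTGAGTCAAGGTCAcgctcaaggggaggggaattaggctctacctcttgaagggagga
The FOXA1 site lies in intergenic sequence 14914 bp (SKBr3 midpoint) from a start of FOXA1, the pioneer factor of luminal cells, and was gained on EGF in both lines. Among SKBr3-only peaks with no peak in any of the 3 BT-474 lists, the first AP-1 word was at rank 28 (within the tie at 3100). It lay in intergenic sequence nearest to FGFR2. Among the equivalent BT-474 peaks the first AP-1 word was at rank 33, nearest to KCNK1. Overlapping AP-1 and ERRE words were rare, at 15 of the shared SKBr3 peaks (0.124%) and 9 of the SKBr3-only peaks (0.0439%), and at 9 and 3 of the BT-474 peaks.

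The ERE (GGTCA and TGACC with 3 free bases between them, in capitals) is shown because its share separated the SKBr3-only peaks from the other classes.
IGF1 shared site, chr12:102942469-102942569 (+ strand): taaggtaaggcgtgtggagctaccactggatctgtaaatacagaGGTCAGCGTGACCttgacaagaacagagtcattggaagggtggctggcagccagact
SCNN1B SKBr3-only site, chr16:23386355-23386455 (+ strand): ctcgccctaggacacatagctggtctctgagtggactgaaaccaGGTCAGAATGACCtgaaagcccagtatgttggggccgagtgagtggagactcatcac
DLG1 BT-474-only site, chr3:197080043-197080143 (+ strand): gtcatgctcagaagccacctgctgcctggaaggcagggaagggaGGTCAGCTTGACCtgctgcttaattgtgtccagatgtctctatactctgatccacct
The IGF1 site is intergenic and shared, with a SKBr3 percentile of 97.3. Its ERE runs into an ERRE word read on the other strand (TGACCTTGA), of which the last bases are left in lower case. The SKBr3-only site lies in an intron of SCNN1B. It was only at rank 849 of the SKBr3-only peaks with no peak in the 3 BT-474 lists. The BT-474-only site nearest to DLG1 was at rank 196 of the equivalent BT-474 peaks.

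AP-1 words were more frequent in SKBr3-only than in BT-474-only peaks. The word lay at 3000 of 20497 SKBr3-only peaks (14.6%, interval 14.2–15.1%), against 9.35% (8.85–9.89%) of the SKBr3 peaks at shared sites. In BT-474 the order was the reverse, with 708 of 14890 BT-474-only peaks (4.75%, interval 4.42–5.11%) against 8.36% (7.87–8.87%) of shared peaks. The flanks of these 4 classes stood between 3.10% and 3.26%, so the BT-474-only share was 1.53 times its flank and the SKBr3-only share 4.49 times. The ERRE was at 9.49% (8.98–10.0%) of shared and 6.25% (5.93–6.59%) of SKBr3-only peaks, and in BT-474 at 9.03% (8.53–9.55%) of shared and 4.33% (4.02–4.67%) of BT-474-only peaks, with no flank above 0.406%. The shorter core word AAGGTCA, which the ERRE contains, was at 30% of the shared peaks of either list, 25.7% of SKBr3-only and 15.8% of BT-474-only peaks, with flanks of 3.35% to 3.95%. Shared sites thus held more ERR words than peaks of 1 line, while AP-1 words near the midpoint were most frequent in SKBr3-only peaks. Over whole peaks, which are wider than this window, AP-1 was at 43.4% of SKBr3-only and 28.6% of BT-474-only peaks, but at 40.3% and 40.7% of shared SKBr3 and BT-474 peaks, close to the SKBr3-only share.

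Most AP-1 words of the SKBr3-only peaks (2023 of 3000) were at peaks gained on EGF, which have no vehicle peak of the same line. Of the SKBr3-only peaks 43.5% were gained and 22.7% (21.8–23.6%) of these carried the AP-1 word, against 8.44% (7.95–8.96%) of the SKBr3-only peaks that were already present on vehicle. Gained SKBr3 peaks at shared sites carried it at 18.5% (16.8–20.3%). Of the BT-474-only peaks 36.5% were gained, and their AP-1 share was 3.81% (3.33–4.35%), near the 2.86% of their flanks. The few gained BT-474 peaks at shared sites had 11.1% (9.13–13.4%). The gained share depends on the cutoff, since among EGF peaks with P of at most 1e-10 a vehicle peak was present at 91.2% of BT-474-only (63.5% of the full list) and 71.9% of SKBr3-only peaks (56.5%). The gained BT-474-only peaks were also the poorest in ERR words, with 2.71% for the ERRE and 9.33% for the core word, and the lowest in rank, with a median percentile of 19.7.

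**Figure D1:**
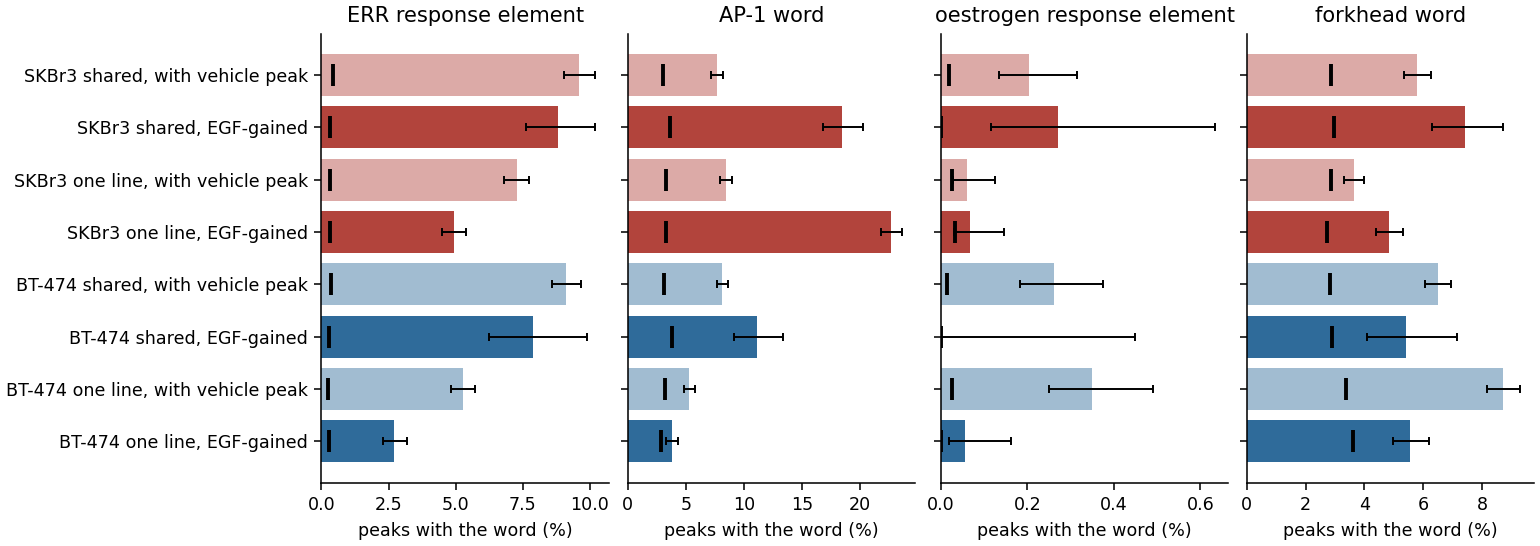
Share of EGF peaks (%, bars, with 95% Wilson intervals) that held the ERRE, AP-1, ERE or forkhead word within 100 bp of the midpoint, for SKBr3 (red) and BT-474 (blue) peaks split by overlap with the other line and by a vehicle peak of their own line (pale, present on vehicle; dark, gained on EGF), and black ticks mark the share in the flanks. AP-1 reached 22.7% of the gained SKBr3-only peaks and 3.81% of the gained BT-474-only peaks.

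The ERE, forkhead and GATA words were more frequent in BT-474-only than in SKBr3-only peaks, whereas TEAD, ETS and AP-2 words were more frequent in SKBr3-only peaks. The ERE was at 36 BT-474-only peaks (0.242%, interval 0.175–0.335%), at 0.243% of shared BT-474 peaks and at 0.215% (0.147–0.315%) of shared SKBr3 peaks, but at only 13 SKBr3-only peaks (0.0634%, interval 0.0371–0.108%). The flanks held it in 0.0293% for SKBr3-only peaks and in 0.0126% to 0.0168% for the other classes. The forkhead word TGTTTAC, bound by FOXA1 and its relatives, was at 7.57% (7.15–8.0%) of BT-474-only peaks and 4.16% (3.9–4.44%) of SKBr3-only peaks, with flanks of 3.46% and 2.80%. The word AGATAAG of GATA factors was at 5.03% (4.69–5.39%) and 2.54% (2.33–2.76%), with flanks of 3.15% and 2.76%. The reverse held for ACATTCC of TEAD factors (3.51% against 5.17%, flanks 2.74% and 2.88%), CCGGAAG of ETS factors (0.336% against 2.08%, flanks 0.366% and 0.668%) and GCCNNNGGC of AP-2 factors (3.64% against 8.72%, flanks 2.56% and 4.66%). The ETS and AP-2 families also hold luminal factors, such as ELF3 and TFAP2B. AACCNGTT, a word of the grainyhead factors, was most frequent at shared sites, at 3.06% of SKBr3 and 3.0% of BT-474 peaks (flanks 1.45% and 1.37%).

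Base composition differed between these classes, so these words were also counted within terciles of GC content. BT-474-only peaks had a mean GC content of 37.1%, against 44.2% for shared BT-474 peaks, 45.5% for shared SKBr3 peaks and 46.9% for SKBr3-only peaks. Their flanks had 40.0%, 43.9%, 43.7% and 44.3%. In the GC-poorest tercile of all peaks (below 38.8%), AP-1 was at 11.6% (10.6–12.7%) of SKBr3-only and 4.11% (3.72–4.54%) of BT-474-only peaks. In the middle tercile the shares were 16.7% and 5.67%, and in the GC-richest tercile (47.3% and above) 14.3% and 6.01%. Forkhead words were more frequent in BT-474-only peaks in the middle (7.93% against 5.11%) and the GC-richest tercile (4.69% against 2.30%), and stood at 7.91% (7.37–8.48%) and 7.12% (6.34–7.98%) in the GC-poorest, where the intervals overlapped. EREs were at 0 of 3792 SKBr3-only (interval up to 0.101%) and 16 of 9056 BT-474-only peaks in the GC-poorest tercile. The AP-2 contrast was smaller or absent within terciles, at 2.0% (1.60–2.50%) of SKBr3-only and 1.37% (1.15–1.63%) of BT-474-only peaks in the GC-poorest, 5.21% (4.71–5.75%) and 5.55% (4.90–6.28%) in the middle and 14.0% (13.3–14.7%) and 11.5% (9.98–13.1%) in the GC-richest. ETS words stood at 0.316% and 0.0994% (overlapping intervals), 0.762% and 0.449% (overlapping intervals), and 3.74% and 1.38%. TEAD words were at 4.27% and 3.33% (overlapping intervals), 5.93% and 4.04%, and 4.96% and 3.13%, and GATA words at 3.45% and 5.15%, 3.29% and 5.45%, and 1.62% and 3.25%. The grainyhead word was more frequent in shared than in BT-474-only peaks of BT-474 in the GC-poorest tercile (3.37% against 2.34%). In the middle (3.39% against 3.19%) and the GC-richest tercile (2.29% against 2.44%) the intervals overlapped. The AP-1 contrast was as large within each score quartile, with 14.1% to 15.6% of SKBr3-only and 4.62% to 5.16% of BT-474-only peaks.

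BT-474-only peaks lay away from promoters. Within 1 kb of a transcription start were 391 of them (2.63%, interval 2.38–2.90%), against 11% (10.4–11.5%) of shared BT-474 peaks, while SKBr3-only and shared SKBr3 peaks had 10.5% (10.1–10.9%) and 11.6% (11.1–12.2%). Intergenic sequence held 53.8% of BT-474-only peaks and between 42.2% and 44.2% of the other classes. The median distance to a start was 65.6 kb for BT-474-only peaks and 26.7 kb, 26.9 kb and 29.6 kb for shared BT-474, shared SKBr3 and SKBr3-only peaks. The gained BT-474-only peaks were the extreme, with 0.902% at promoters, 59.6% intergenic and a mean GC content of 33.5%. GC content moved with the list as well as with the class, at a mean of 40.3% over the BT-474 EGF list, 42.7% on BT-474 vehicle and 46.4% over the SKBr3 EGF list, and its part in these shares was not tested.

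**Figure D2:**
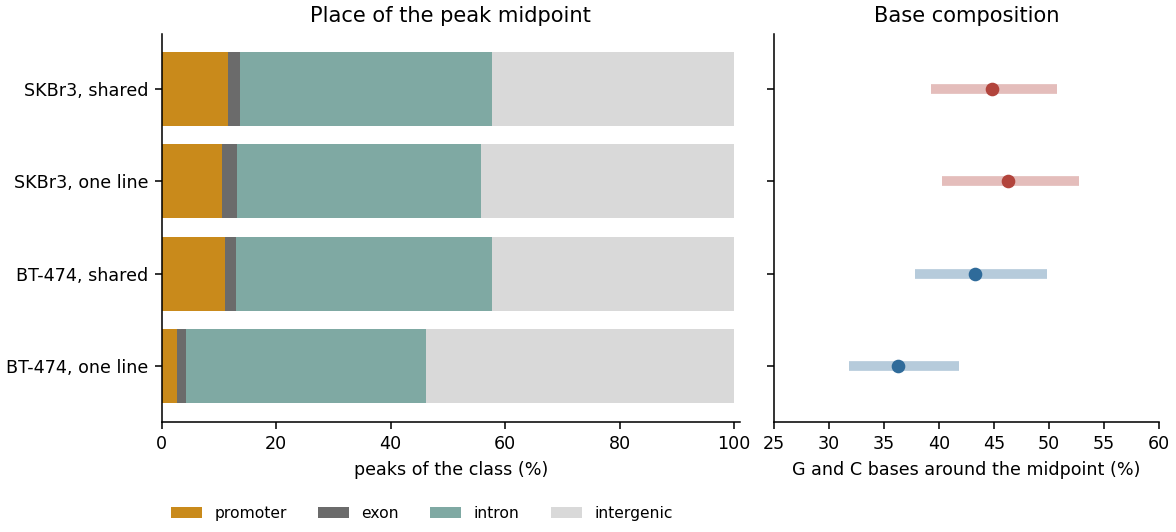
Left, place of the peak midpoint (% of the peaks of each class) for shared and one-line EGF peaks of SKBr3 and BT-474; right, GC content of the window around the midpoint (%, point is the median and bar the interquartile range). Promoters held 2.63% of BT-474-only peaks and 10.5% to 11.6% of the other classes, and the BT-474-only peaks were the poorest in GC.

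Overlap between the lines followed the strength of the peak. Of the 32567 SKBr3 peaks 12070 (37.1%, interval 36.5–37.6%) overlapped a BT-474 peak, and of the 26832 BT-474 peaks 11942 (44.5%, 43.9–45.1%) overlapped a SKBr3 peak. The shared share rose in every step of score, from 17.6% of the lowest to 75.4% of the highest decile of SKBr3 peaks and from 21.7% to 83.1% in BT-474. Median percentiles were 69.7 for shared and 40.0 for SKBr3-only peaks, and 67.6 and 37.1 in BT-474. Ranks within the 2 lists were nevertheless only loosely related across the 12248 overlapping pairs (Spearman's rho 0.372, a description across sites), and 1041 pairs were in the highest quartile in SKBr3 but below the median in BT-474, with 886 the other way. Midpoints of a pair were a median of 144 bp apart. Few one-line peaks were near misses, as 3.55% of SKBr3-only and 2.49% of BT-474-only peaks lay within 1 kb of a peak of the other EGF list.

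**Figure D3:**
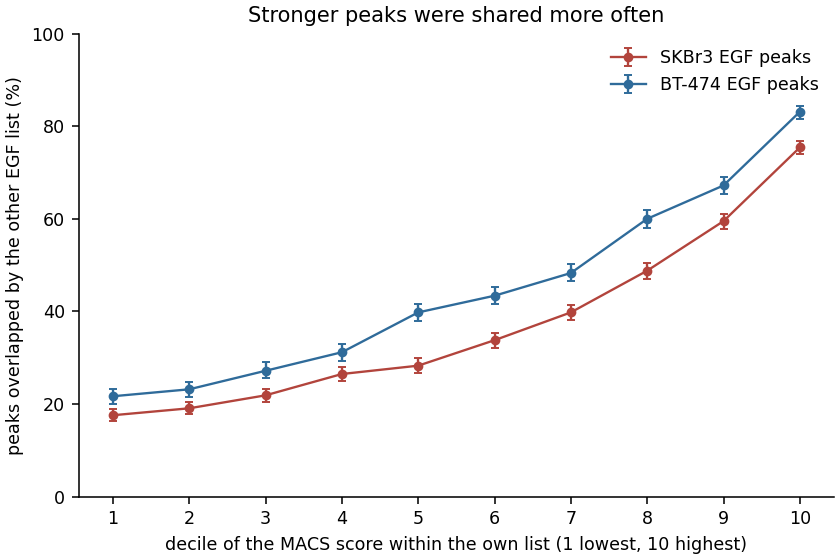
Share of EGF peaks (%, with 95% Wilson intervals) overlapped by a peak of the other EGF list, by decile of the score within the own list, for SKBr3 (red) and BT-474 (blue). It rose from 17.6% to 75.4% in SKBr3 and from 21.7% to 83.1% in BT-474.

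Sites shared on EGF were mostly present on vehicle in both lines. That held for 9474 of the 11764 shared sites (80.5%, interval 79.8–81.2%), and 83.8% of these also had HRG peaks in both lines. A further 1455 sites (12.4%) were gained in SKBr3 and already present on vehicle in BT-474, and 562 (4.78%) were gained in BT-474 and present on vehicle in SKBr3. Gain in both lines was limited to 273 sites (2.32%, interval 2.06–2.61%), of which 23.4% (18.8–28.8%) held an AP-1 word near the midpoint of either peak, 13.6% (10.0–18.1%) held an ERRE and 4.76% lay at a promoter. The corresponding shares at sites present on vehicle in both lines were 11.6%, 13.3% and 13.3%. An AP-1 share as high, 23% (20.9–25.2%), was found at the 1455 sites gained in SKBr3 alone, with 5.02% at promoters, while the 562 sites gained in BT-474 alone had 14.6% (11.9–17.7%) and 6.58%. Few of the sites gained in both lines were strong, and with P of at most 1e-10 in both EGF lists the SKBr3 peaks of this kind fell from 279 to 33, while shared SKBr3 peaks fell from 12070 to 7642. By the lower of the 2 percentiles, the strongest site gained in both lines was intergenic on chromosome 20, with HMGB1P1 as the nearest gene (38512 bp away). The next were in introns of DYRK1A and ARHGAP6, near FOXA1 and in an intron of ADGRL4.

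Most one-line sites had no peak of the other line under any treatment. Of the SKBr3-only peaks 67.8% (67.2–68.5%) were without a BT-474 peak on vehicle, EGF or HRG, while 18.7% overlapped a BT-474 vehicle peak and 26.2% a BT-474 HRG peak. Of the BT-474-only peaks 83.8% (83.2–84.4%) were without a SKBr3 peak in the 3 lists, 10.3% overlapped a SKBr3 vehicle peak and 8.27% a SKBr3 HRG peak. The strongest SKBr3-only peaks of this kind were at BCL11A, in an exon of ARRDC2, in intergenic sequence nearest to RBM15, in an intron of the Wnt ligand gene WNT7A and in an intron of SPNS2. The strongest in BT-474 was intergenic, with MAT2B as the nearest gene (56371 bp away). A further 27 such BT-474 peaks tied at 3100. The widest of these were intergenic with PEX2 (399498 bp away) and TPBG (204799 bp away) as nearest genes, in an intron of PPP1R1C and at the promoter of PLXDC1 (chr17:37307959-37314367, GRCh37).

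Protein-coding genes with a start within 20 kb of a peak midpoint were classed in the same way. Of 19794 genes, 5975 (30.2%) were near EGF peaks of both lines, 4357 (22%) near SKBr3 peaks only, 1598 (8.07%) near BT-474 peaks only and 7864 (39.7%) near neither. These shares are the background for the gene lists that follow. Of the genes near SKBr3 EGF peaks only, 53.5% had a BT-474 peak on vehicle or HRG, and of those near BT-474 EGF peaks only, 42.4% had a SKBr3 peak on vehicle or HRG. A vehicle peak of their own line was near 76.2% of the former and 77.2% of the latter.

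Genes of the respiratory chain were bound in both lines. EGF peaks of both lines were near 57 of the 77 genes (74.0%, against 30.2% of all genes), in each case with peaks that overlapped, and 14 were near SKBr3 peaks only. Complexes II to V had 35 of 40 genes near both, and complex I, the NADH dehydrogenase, 22 of 37. ATP5F1B, the β subunit of ATP synthase, had promoter peaks at percentile 98.6 in SKBr3 and 98.9 in BT-474. COX6C, a subunit of cytochrome c oxidase, had promoter peaks at the same 2 percentiles, and cytochrome c itself (CYCS) at 93.4 and 89.9. SDHB, the iron-sulphur subunit of succinate dehydrogenase, stood at 86.2 and 63.5, and the complex I subunit NDUFS1 at 88.5 and 68.7. Ranks were higher in SKBr3 over these lists, with a median of 90.2 against 70.3 for the 22 complex I genes and 93.8 against 79.1 for the 35 genes of complexes II to V, while all 5975 genes near both gave 78.5 against 69.7. All 14 genes near SKBr3 peaks only, such as the complex I subunits NDUFV1 and NDUFA13, also had a SKBr3 vehicle peak (76.2% over all such genes), and 7 had a BT-474 peak on vehicle or HRG. The 3 genes near BT-474 peaks only were NDUFA5, NDUFB9 and UQCRB.

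The pyruvate and TCA cycle list was similar, with 20 of 27 genes near both lines' peaks, 5 near SKBr3 peaks only and 1 (PDP1) near BT-474 peaks only. CS, citrate synthase, had its strongest peaks at percentiles 98.6 in SKBr3 and 99.9 in BT-474, and IDH3A, a subunit of NAD-dependent isocitrate dehydrogenase, promoter peaks at 95.2 and 99.9. PDK4, which inhibits pyruvate dehydrogenase, had overlapping intergenic peaks at 98.6 and 95.8. MPC1, a subunit of the mitochondrial pyruvate carrier, had a promoter peak in both lists, but at percentile 97.3 in SKBr3 and 2.48 in BT-474. Of the fatty acid oxidation genes 11 of 20 were near both, among them CPT1A, the rate-limiting enzyme of long-chain fatty acid entry into mitochondria, with 8 SKBr3 and 7 BT-474 peaks. The glutathione list had 18 of 30 genes near both, 6 near SKBr3 peaks only and 0 near BT-474 peaks only. GCLM and GCLC, the subunits of the enzyme that starts glutathione synthesis, and GSR, which recycles oxidised glutathione, were near both, while GSS and the peroxidases GPX1, GPX3 and GPX4 were near SKBr3 peaks only. The GPX1 start lay 18585 bp from its SKBr3 peak, and 1 BT-474 peak was in range on vehicle and 1 on HRG.

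Among the ERR genes themselves, ESRRA had promoter peaks in both lines, at percentile 98.6 in SKBr3 and 98.9 in BT-474. ESRRG, the gene of ERRγ, had 5 peaks in each line. PPARGC1B, which encodes PGC-1β, had 6 peaks in SKBr3, the strongest at percentile 94.2, and 2 in BT-474, the stronger at 69.1. NRIP1, a corepressor of nuclear receptors, was near both, and PPARGC1A, which encodes PGC-1α, near neither. In all 6 of the 14 ERR and coregulator genes were near both (42.9%), 4 near SKBr3 peaks only (28.6%) and 1 near BT-474 peaks only (7.14%). The intervals of these shares include the shares over all genes.

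**Figure D4:**
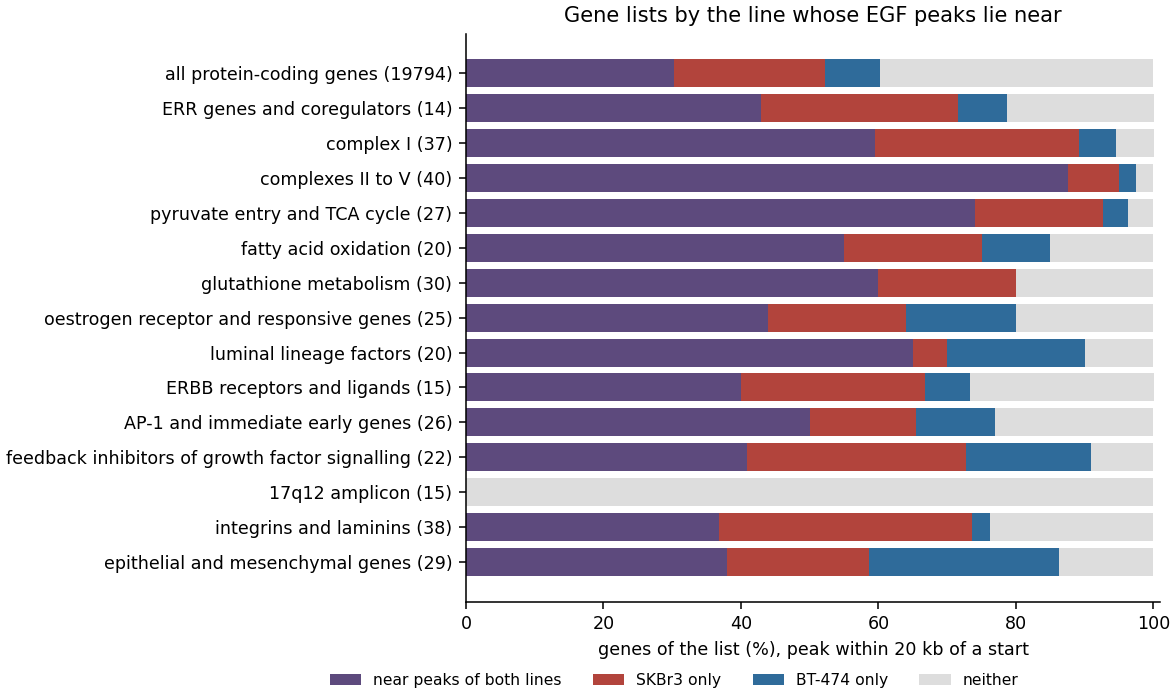
Share of genes of each list (%, number of genes in brackets) with a start within 20 kb of EGF peaks of both lines (purple), of SKBr3 only (red), of BT-474 only (blue) or of neither (grey), with all protein-coding genes on top. Respiratory chain and TCA cycle lists were mostly near both (59.5% to 87.5%, against 30.2% of all genes), and no gene of the 17q12 list was near a peak.

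Of 25 oestrogen receptor and responsive genes 11 were near both (44%), among them TFF1, GREB1, XBP1, CCND1 and CTSD. SKBr3 peaks only were near 5 (20%, against 22% of all genes) and BT-474 peaks only near 4 (16.0%, interval 6.40–34.7%, against 8.07%), and the intervals of both shares include the background. The TFF1 promoter peak stood at percentile 55.1 in SKBr3 and 85.5 in BT-474, and within 20 kb of a TFF1 start there were 0 SKBr3 and 2 BT-474 vehicle peaks. GREB1, an early oestrogen response gene, had 2 SKBr3 and 9 BT-474 peaks in range. ESR1, which encodes ERα, had 3 peaks in BT-474, the strongest at a promoter and at percentile 58.6, and none in the 3 SKBr3 lists. RARA, a retinoic acid receptor gene, had 4 BT-474 peaks (strongest 87.5) and SIAH2, a ubiquitin ligase gene, also 4 (94.4), likewise with none in the SKBr3 lists. PGR, which encodes the progesterone receptor, was near 1 SKBr3 peak at percentile 28.7 and no BT-474 peak on vehicle, EGF or HRG. Luminal lineage factors were near both in 13 of 20 cases, among them FOXA1, GATA3, ELF3 and EHF. TBX3, a T-box repressor of the mammary lineage, had 10 BT-474 peaks and none in SKBr3 on EGF or vehicle, and TFAP2B, CEBPB and TRPS1 were also near BT-474 peaks only. ZNF217 was the 1 factor near a SKBr3 peak only.

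The ERBB receptors and their ligands had 6 of 15 genes near both (40.0%, against 30.2% of all genes). SKBr3 peaks only were near 4 (EGFR, HBEGF, NRG2 and NRG4, 26.7% against 22%) and a BT-474 peak only near 1 (EPGN, 6.67% against 8.07%). The intervals of these shares include the background, and 3 of the 4 genes near SKBr3 peaks only had a BT-474 peak on vehicle or HRG. ERBB3, the partner of HER2, had strong peaks in both lines, at percentiles 96.9 and 97.8. EREG, the gene of the EGFR ligand epiregulin, had an intronic peak at 95.3 in SKBr3 and 93.9 in BT-474. EGFR had 4 SKBr3 peaks, the strongest at percentile 64.6, and HBEGF, another EGFR ligand gene, had 2, the stronger at 86.8. ERBB2 and the other 14 listed genes of the 17q12 amplicon were near no EGF peak of either line. The stretch that they span (chr17:37408916-38217468, GRCh37) held 0 peaks in all 6 lists of SKBr3 and BT-474, against 1098 peaks on the whole chromosome in the SKBr3 EGF list and 634 in the BT-474 EGF list. It also held 0 peaks in the list of untreated parental SKBr3 cells and 3 in that of lapatinib-resistant SKBr3 cells. Both lines have amplified HER2, and whether copy number bears on these missing peaks was not tested.

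Among the AP-1 and immediate early genes 13 of 26 were near both, among them FOS, FOSL1, FOSL2, JUNB and ATF3, while JUN and EGR1 were near neither. The FOSL2 promoter peak stood at percentile 96.9 in SKBr3 and 95.5 in BT-474, and the strongest FOS peak at 97.1 and 86.3. Feedback inhibitors of growth factor signalling had 9 of 22 genes near both (40.9%), 7 near SKBr3 peaks only (31.8%) and 4 near BT-474 peaks only (18.2%). The intervals of these shares include the shares over all genes. DUSP1 and DUSP4, phosphatases of MAP kinases, ERRFI1, an inhibitor of EGFR, and SPRY4 and SPRED2, inhibitors of the RAS pathway, were near both. DUSP5, DUSP2, DUSP7, SPRY2, SPRED1, CBLB and SOCS3 were near SKBr3 peaks only, and 1 of these 7, DUSP5, was also near a SKBr3 vehicle peak, against 76.2% of all genes near SKBr3 EGF peaks only. DUSP6, SPRED3, LRIG1 and TRIB1 were near BT-474 peaks only, and all 4 were also near BT-474 vehicle peaks, against 77.2% of all such genes.

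Of 38 integrin and laminin genes 14 were near both, 14 near SKBr3 peaks only and 1 (ITGA9) near a BT-474 peak only. The share near SKBr3 peaks only was 36.8% (interval 23.4–52.7%), against 22% of all genes, and 10 of these 14 genes (71.4%, against 53.5% of all such genes) had a BT-474 peak on vehicle or HRG. LAMA4, a laminin chain gene, had an intronic SKBr3 peak at percentile 92.9 with no peak in the 3 BT-474 lists. ITGB1, the common β1 integrin subunit, had 3 SKBr3 peaks and none in BT-474 on EGF or vehicle, with 3 on HRG. ITGB4, a hemidesmosome integrin gene, had an overlapping intergenic peak that stood at 73.5 in SKBr3 and 98.9 in BT-474. Epithelial and mesenchymal genes had 11 of 29 near both, 6 near SKBr3 peaks only and 8 near BT-474 peaks only (27.6%, against 8.07% of all genes). KRT8 and KRT18, the keratin pair of luminal cells, were near both. CDH1, which encodes E-cadherin, had 3 BT-474 peaks (strongest 82.3) and none in the 3 SKBr3 lists. CDH3, which lies beside it on chromosome 16, likewise had 3 BT-474 peaks (strongest 82.1) and none in the SKBr3 lists. Whether copy number bears on this was not tested. The mesenchymal genes VIM, SNAI1 and ZEB2 were also near BT-474 peaks only, each with 1 peak below the median rank. The other mesenchymal genes of the list lay elsewhere, with TWIST1 near SKBr3 peaks only, CDH2 and FN1 near both, and SNAI2 and ZEB1 near neither.

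The genes with most peaks of 1 line in range and no EGF peak of the other were TNIP1 (10 SKBr3 peaks), SPNS2 (9) and GRAMD1B, LASP1 and GRM7 (8 each) in SKBr3, and TBX3 (10 BT-474 peaks), TCF4 (8) and FOXP2 (6) in BT-474, where 13 further genes tied at 4. FOXP2 had 8 SKBr3 vehicle peaks in range although it had none on EGF.

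One-line peaks were not spread evenly over the chromosomes. On chromosome 8, 79.0% (76.9–80.9%) of BT-474 peaks were found in BT-474 alone, against 34.7% on chromosome 19 and 55.5% over all chromosomes. The chromosome held 6.03% of the BT-474 EGF list and 2.90% of the SKBr3 EGF list. In 3 autosomal windows of 5 Mb at least 20 BT-474 EGF peaks faced at most 2 SKBr3 EGF peaks, and no window had the reverse. They were at 115 to 120 Mb of chromosome 8 (93 BT-474 and 0 SKBr3 peaks), at 120 to 125 Mb of the same chromosome (95 and 0) and at 35 to 40 Mb of chromosome 18 (49 and 0). The SKBr3 vehicle list held 1, 0 and 0 peaks there, and the SKBr3 HRG list and the list of untreated parental SKBr3 cells none. Copy number is not among the values, so binding and copy number cannot be told apart in these windows. Of the 32 listed genes near BT-474 peaks only, 11 lay on chromosome 8 (MYC, TRPS1, NDUFB9, UQCRB, KLF10, TRIB1, DECR1, ESRP1, PDP1, NCOA2 and NAT1), so that 21 remained without it. The shares of AP-1, ERRE and promoter peaks in each class moved little without chromosome 8, with AP-1 at 4.70% of BT-474-only peaks and 14.6% of SKBr3-only peaks.

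**Figure D5:**
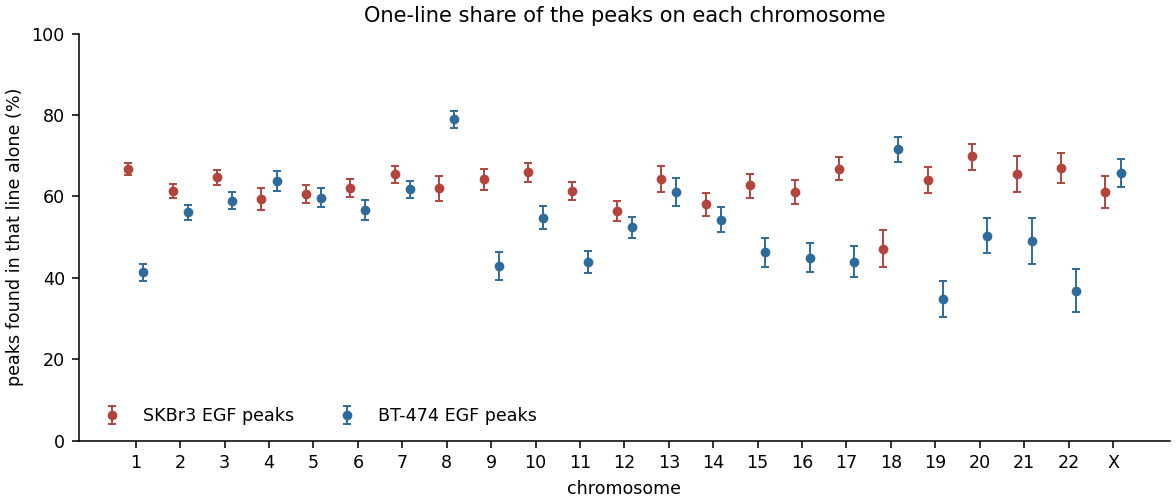
Share of the EGF peaks on each chromosome (%, with 95% Wilson intervals) that were found in that line alone, for SKBr3 (red) and BT-474 (blue). BT-474 peaks ranged from 34.7% on chromosome 19 to 79.0% on chromosome 8.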

How the data were processed

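ERRα ChIP-seq peak lists of SKBr3 and BT-474 cells were used, with the vehicle and HRG lists of both lines as references. The authors aligned reads with BWA (version 0.5.9 and SAMtools 0.1.18 in the submitters' processing notes) to hg19, and MACS was run at a P cutoff of 1e-05. They deposited BED lists of position, name and score, in which the score of a peak derives from −log10 of its P value and is 50 at the cutoff. Headers of the SKBr3 lists mention FindPeaks, although the peaks carry MACS names. Replicate ChIP libraries are pooled in the lists.

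Peaks overlapping by at least 1 bp were shared. Midpoints were used for location (promoter, within 1 kb of a start), genes (within 20 kb of a start of 19794 GENCODE protein-coding genes on GRCh37) and words (within 100 bp, compared with flanks 2 kb away). Genes named are those of 14 lists (357 genes), the top 5 sites of each class and the 5 genes with most one-line peaks. Sequences are the first of each class with the word, and for shared sites the word had to lie in both peaks, a condition added later, as were the overlapping AP-1 and ERRE words, the GC terciles and the windows without peaks. The members and lists were chosen with earlier results of these data known.

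The alternatives were a stricter P threshold, lists of equal size, 50% overlap, no peak in 3 lists, whole peaks searched, 10 kb to a start and, added later, chromosome 8 left out. The steps were tested on simulated data. Python 3.11.15, numpy 2.4.6, scipy 1.17.1, pysam 0.24.0 and matplotlib 3.10.9 were used.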

Additional observations from a re-analysis of the deposited data

Results flagged for a closer look

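Over the whole EGF lists, the AP-1 share differed in opposite directions between gained and vehicle-present peaks of the lines. In SKBr3, its share was 13.9 percentage points higher at EGF-gained than at vehicle-present EGF peaks (22% against 8.10%), whereas in BT-474 the difference was -2.05 points (4.79% against 6.84%). The BT-474 difference did not hold in every class, with 11.1% against 8.15% at shared sites and 5.94% against 5.59% in the middle GC tercile of BT-474-only peaks. The number of peaks also changed in opposite directions, by 1.19% on EGF against vehicle in SKBr3 and by -16.8% in BT-474. With 1 list for each line and treatment, neither difference between the lines was tested.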

How the results depend on the processing

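Of the alternative values, 88 stayed within the counting interval or within 1.5 times the count, and 32 did not. At P of at most 1e-10, shared peaks fell to 7642 in SKBr3 and 7563 in BT-474, BT-474-only peaks to 7716, and SKBr3 peaks gained in both lines from 279 to 33. Promoter shares were then 12.7% (shared SKBr3), 11.9% (shared BT-474) and 3.34% (BT-474-only), AP-1 14.1% of SKBr3-only and 5.16% of BT-474-only peaks, ERRE 5.46% of BT-474-only peaks, and 71.9% of SKBr3-only and 91.2% of BT-474-only peaks had a vehicle peak. With lists of equal size, one-line counts were nearly equal by construction (15804 and 15866), the vehicle shares were 62.8% and 64.8% and the BT-474-only promoter share 2.94%. With 50% overlap, these were 55.1%, 61.0% and 3.45%, and the ERRE share of shared BT-474 peaks was 9.96%. For peaks without a peak in the 3 lists of the other line, promoter shares were 8.87% (SKBr3) and 1.96% (BT-474) and ERRE shares 5.62% and 4.0%. Searching whole peaks gave ERRE shares of 21.1% (shared) and 12.3% (SKBr3-only) in SKBr3 and 21.1% and 11.8% in BT-474, and AP-1 shares of 40.3% and 43.4%, and of 40.7% and 28.6%. Without chromosome 8, 21 listed genes were near BT-474 peaks only. Apart from what each setting removes by construction, the cause of these shifts was not tested. No paired analysis was possible because there is 1 list per line and treatment, called on pooled libraries in SKBr3 and on 1 library in BT-474, and for the same reason no replicate could be left out.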

Other observations

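Words of promoter factors were also counted. CCGGAAG of ETS factors was at 10.0% (8.83–11.4%) of the promoter peaks found in SKBr3 alone, 6.85% (5.64–8.29%) of shared SKBr3 promoter peaks and 2.30% (1.22–4.32%) of the 391 promoter peaks found in BT-474 alone. GCGCATGCG of NRF1, a regulator of respiratory chain genes, was at 24 of 2155 SKBr3-only promoter peaks (1.11%) and 5 of 1402 shared SKBr3 promoter peaks (0.357%), and the flanks of all SKBr3-only and all shared SKBr3 peaks held it in 0.0146% and 0.0124%. The ERRE was less frequent at promoters than elsewhere among shared SKBr3 peaks, at 4.07% (3.15–5.23%) against 10.2% (9.64–10.8%). TGACGTCA, the word of CREB and ATF factors, was at 63 SKBr3-only peaks (0.307%) and 5 BT-474-only peaks (0.0336%), with flanks of 0.0878% and 0.0940%. TGTGGTT of RUNX factors was at 3.51% of SKBr3-only and 4.47% of BT-474-only peaks (flanks 3.61% and 3.89%). Around the 273 sites gained in both lines, 119 genes were in range. The lists, which hold 357 of all 19794 genes, included 4 of them, namely EREG, FOXA1, GRHL1 and SPRED2.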
